A study of Mus musculus with 10 samples.

Results

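The genes described here carry peptides from the cytosol to the cell surface on MHC class I molecules. There are 10 of them, out of 56750 features in the deposited count table, and they were chosen by name: the class I heavy chains H2-K1, H2-D1, H2-Q4 and H2-T23, the light chain B2m, the peptide transporter subunits Tap1 and Tap2, the loading chaperone Tapbp, and the immunoproteasome subunits Psmb8 and Psmb9. The rule names genes and uses no measured value, although the list was drawn up with earlier results of these data known. All 10 passed the filter on low counts, with between 184 and 32084 counts per gene in a library.

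RNA had been sequenced from sarcomas of mice that develop CIC::DUX4 sarcoma (CDS), labelled dFLEx CDS +/-, and from sarcomas of KP mice, whose label includes p53fl/fl. The dFLEx allele carries an HA-tagged fusion of CIC, a transcriptional repressor, with DUX4, and expresses it only after recombination by both Cre and FLP. In the study's methods dFLEx tumors arise from plasmids for Cre and FLPE, each driven by the CAG promoter, electroporated into the gastrocnemius of mice aged 6 to 12 weeks. The KP mice carry floxed Trp53, and neither the way KP tumors were induced, nor the age of those mice, nor the strain of either group was given in the sources used here. The dFLEx group held 3 tumors (170019, 170024 and 170025; 6 libraries) and the KP group 2 tumors (3800 with 2 libraries and 3802 with 1). Of 10 labelled libraries 9 had a column and were used, and R2 of 3802 was not analysed here. Duplicate libraries came from the same RNA and were summed, so a tumor is the replicate. The labels do not say whether each tumor came from its own mouse.

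Class I molecules are held together by B2m and show short peptides to CD8 T cells and NK cells. Peptides are cut by the proteasome, in which interferon gamma replaces constitutive catalytic subunits by Psmb8, Psmb9 and Psmb10, carried into the endoplasmic reticulum by the Tap1-Tap2 transporter, and loaded onto new heavy chains with the help of tapasin, the product of Tapbp. Interferons raise transcription of these genes through factors such as IRF1, and NLRC5 acts on the promoters of heavy chain genes and B2m. Leukocytes and endothelial cells carry much class I, so in a piece of tumor fewer such cells and less RNA per cell cannot be told apart. H2-K1 and H2-D1 (the classical heavy chains) are among the most polymorphic genes between mouse strains.

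Of the 10 genes, 9 lie on chromosome 17 and B2m lies on chromosome 2. Within chromosome 17 the order of the table's features (GRCm39) is Tapbp from 34134873 to 34148266, H2-K1 from 34214991 to 34219321 on the minus strand, Psmb9 from 34400961 to 34406738 on the minus strand, Tap1 from 34406527 to 34416199, Psmb8 from 34416695 to 34420428, Tap2 from 34422501 to 34435295, H2-D1 from 35481706 to 35486475, H2-Q4 from 35598593 to 35604266, and H2-T23 from 36340665 to 36343747 on the minus strand. B2m spans 121978167 to 121983564. Psmb9 and Tap1 are transcribed away from each other and overlap at their starts.

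The upstream sequence of H2-K1, H2-D1, H2-Q4 and B2m is shown because these members share promoter elements that the list of names did not use. For H2-T23, the remaining heavy chain, only a forward CCAAT box was found, and its sequence is not shown. RefSeq windows (build GRCm38.p6) were found for 9 of the 10 genes, each was matched as an exact run to GRCm39, and the 250 bases before the RefSeq start were searched on both strands for the NF-kappaB consensus, the core of the interferon-stimulated response element (ISRE, GAANNGAAA), the interferon gamma-activated site (GAS, TTCNNNGAA) and the CCAAT box. Each sequence below runs 5′ to 3′ along its gene from 10 bases before the NF-kappaB match to 10 bases after the reversed CCAAT box (ATTGG), with matches in capitals.
H2-K1, chr17:34219323-34219442, minus strand: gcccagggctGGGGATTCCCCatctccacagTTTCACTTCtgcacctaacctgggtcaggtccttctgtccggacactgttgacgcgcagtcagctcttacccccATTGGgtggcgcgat
H2-D1, chr17:35481889-35482008, plus strand: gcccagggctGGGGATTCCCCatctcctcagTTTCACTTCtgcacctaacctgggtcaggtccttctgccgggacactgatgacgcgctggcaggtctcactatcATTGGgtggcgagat
H2-Q4, chr17:35598409-35598528, plus strand: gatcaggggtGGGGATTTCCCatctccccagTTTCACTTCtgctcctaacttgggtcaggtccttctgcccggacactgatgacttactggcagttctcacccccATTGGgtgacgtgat
B2m, chr2:121978032-121978129, plus strand: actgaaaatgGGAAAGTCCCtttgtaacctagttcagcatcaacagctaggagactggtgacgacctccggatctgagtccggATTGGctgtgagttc

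The 3 heavy chain stretches are the same length, 120 bases, and line up without a gap. H2-K1 and H2-D1 are identical at 108 of these bases, H2-D1 and H2-Q4 at 103, and H2-K1 and H2-Q4 at 102. In each of them the first run of capitals holds 2 overlapping NF-kappaB matches, and the second run is an ISRE core on the reverse strand. The B2m stretch has an NF-kappaB match and a reversed CCAAT box but no ISRE core of these letters. Of 32526 distinct windows in the RefSeq table, 7.28% held an NF-kappaB match, 6.35% an ISRE core, 7.04% a GAS and 33.8% a CCAAT box. Among the genes of the class I list, an NF-kappaB match was found for H2-K1, H2-D1, H2-Q4 and B2m, an ISRE core for H2-K1, H2-D1 and H2-Q4, and a GAS for Psmb8. The CCAAT box was present for 8 of the 9 genes with a window, Psmb8 being the exception. A match describes the letters and not binding. By GENCODE M39 the H2-K1 and H2-Q4 stretches lie outside the canonical exons of their genes, while those of H2-D1 and B2m lie within a first exon that begins further upstream than the RefSeq start.

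The design asks how CIC::DUX4 sarcomas differ in transcription from sarcomas with another driver. Levels are given in CPM (counts relative to library size, after TMM scaling) for tumors 170019, 170024 and 170025 and then for 3800 and 3802. The heavy chains, B2m and Tapbp were lower in all 3 dFLEx tumors than in both KP tumors, by a fitted 1.95-fold (H2-T23) to 4.47-fold (H2-K1), whereas Tap1, Tap2, Psmb8 and Psmb9 overlapped between the groups. By edgeR's quasi-likelihood test on tumor sums, none of the 10 genes passed an adjusted p of 0.05, against 45 of 24743 tested genes (0.182%). At an unadjusted p under 0.05, 4 members were lower in dFLEx tumors (H2-K1, H2-D1, H2-Q4 and B2m), beside 4.93% of all tested genes. DESeq2 on the same sums called H2-K1 and H2-Q4 lower, with adjusted p of 0.0225 and 0.0379, beside 3.6% of its tested genes called lower. With each library entered as its own sample, edgeR called H2-K1, H2-D1, H2-Q4, B2m and Tapbp lower, beside 8.88% of the genes tested there, but duplicates of the same RNA then count as replicates. A separation without overlap in this direction was found for 6 of 10 members and for 11.7% of all tested genes. The median log2 fold change was -1.14 over the 10 members and -0.18 over all tested genes.

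**Figure D1:**
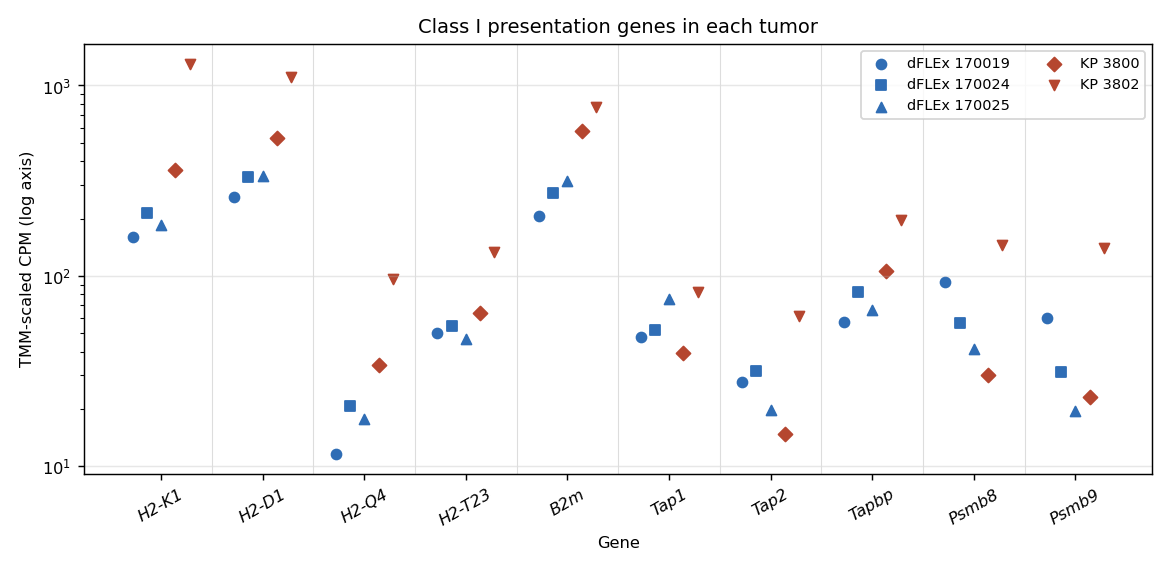
TMM-scaled CPM (log axis) of each class I presentation gene, with 1 point per tumor, dFLEx tumors in blue and KP tumors in red. For H2-K1, H2-D1, H2-Q4, H2-T23, B2m and Tapbp both red points stand above all 3 blue points, and for Tap1, Tap2, Psmb8 and Psmb9 tumor 3800 falls among or below them.

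H2-K1 encodes the classical heavy chain K. It stood at 161, 213 and 185 CPM in the dFLEx tumors and at 361 and 1304 CPM in the KP tumors. The dFLEx tumors lay close together (186 ± 26.3 CPM, SD, n = 3), while 3802 held 3.61 times the level of 3800. The log2 fold change was -2.16 (SE 0.65), with an edgeR adjusted p of 0.256, and without 3802 it was -0.94 (SE 0.64).

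H2-D1 encodes the other classical heavy chain of the reference strain. Its levels were 259, 331 and 337 CPM in dFLEx tumors against 529 and 1102 CPM in KP tumors. The groups did not overlap, and the lower KP tumor held 1.57 times the highest dFLEx tumor. The log2 fold change was -1.40 (SE 0.55; edgeR adjusted p = 0.412), and -0.76 without 3802.

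Non-classical heavy chains are less polymorphic, and H2-T23 encodes Qa-1, the ligand of the CD94-NKG2A receptor. H2-Q4, a gene of the Q region, was measured at 11.5, 20.7 and 17.7 CPM in dFLEx tumors and at 34.0 and 96.8 CPM in KP tumors. Its log2 fold change of -1.98 (SE 0.65; edgeR adjusted p = 0.310) was close to that of H2-K1. H2-T23 was measured at 50.2, 54.7 and 46.4 CPM in dFLEx tumors and at 63.8 and 133 CPM in KP tumors. Here the gap between groups was the narrowest of the 6 separated genes, since 3800 held only 1.17 times the highest dFLEx tumor, and the log2 fold change was -0.96 (SE 0.56; edgeR adjusted p = 0.684).

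B2m, the light chain shared by all class I molecules, stood at 207, 274 and 315 CPM in dFLEx tumors and at 580 and 769 CPM in KP tumors. It was the member for which the KP tumors were nearest each other, 3802 holding 1.33 times the level of 3800, and for which the lower KP tumor exceeded the highest dFLEx tumor by the widest factor, 1.84. The log2 fold change was -1.35 (SE 0.51; edgeR adjusted p = 0.402), and it moved less than that of any other member when 3802 was left out, to -1.11.

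Tapbp, whose product tapasin bridges the transporter and the empty heavy chain, followed the heavy chains. Its levels were 57.1, 82.5 and 66.2 CPM in dFLEx tumors against 106 and 197 CPM in KP tumors. The log2 fold change was -1.14 (SE 0.55; edgeR adjusted p = 0.556). Both KP tumors were above all dFLEx tumors under TMM, DESeq2 size factors and library totals, but with upper-quartile scaling the groups overlapped for Tapbp and for H2-T23.

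The transporter genes did not separate the groups. Tap1 stood at 47.7, 52.0 and 76.0 CPM in dFLEx tumors and at 39.3 and 82.7 CPM in KP tumors, so that 3800 was the lowest and 3802 the highest of the 5 tumors. Its log2 fold change was -0.06 (SE 0.60; edgeR adjusted p = 0.989). Tap2 was measured at 27.7, 31.5 and 19.8 CPM in dFLEx tumors and at 14.8 and 61.6 CPM in KP tumors, again with the dFLEx tumors between the KP tumors (log2 fold change -0.53, SE 0.71). Without 3802 the log2 fold changes turned positive, 0.59 for Tap1 and 0.85 for Tap2, and so did the median of all tested genes, at 0.34.

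Within each group the immunoproteasome genes spanned the widest range of the members. Psmb8, which replaces Psmb5, stood at 93.1, 56.6 and 41.4 CPM in dFLEx tumors and at 30.1 and 146 CPM in KP tumors. Psmb9, which replaces Psmb6, stood at 60.5, 31.4 and 19.6 CPM in dFLEx tumors and at 23.1 and 141 CPM in KP tumors. For both, 3802 was the highest tumor and 3800 was at or near the bottom, with 4.86 and 6.09 times between them. The log2 fold changes were -0.47 (SE 0.76) and -1.14 (SE 0.84), neither past the threshold (edgeR adjusted p = 0.927 and 0.802). Without 3802 they were 1.10 and 0.70, beside a median of 0.34 over all tested genes.

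**Figure D2:**
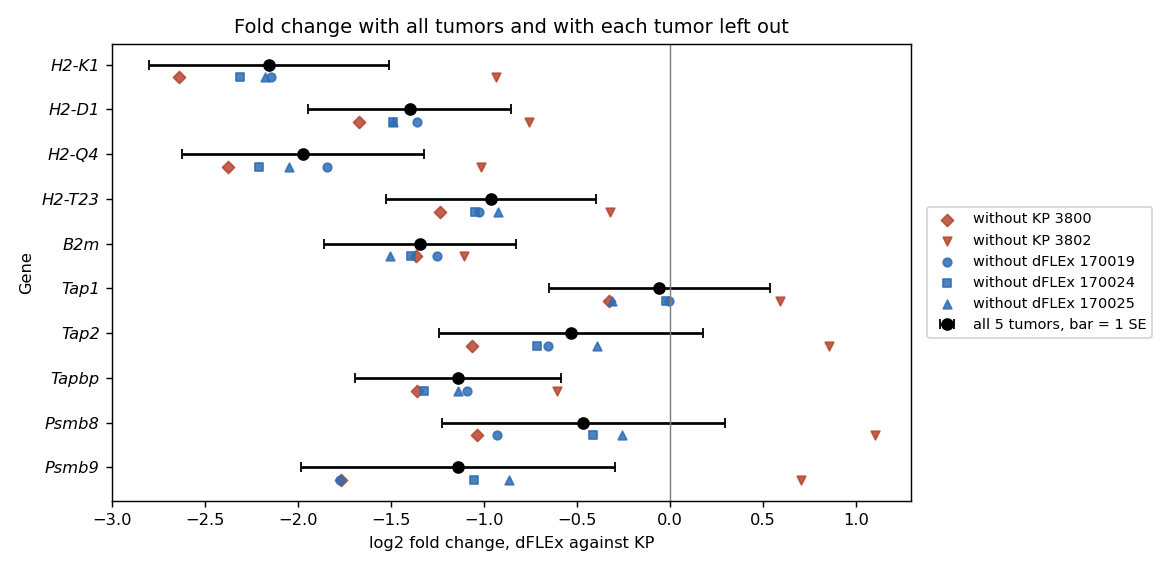
Log2 fold change of each gene, dFLEx against KP, from edgeR on tumor sums. Black points are the fit to all 5 tumors with bars of 1 SE, and coloured points the fits without the tumor named. Leaving out 3802 moved every gene to the right, and it took Tap1, Tap2, Psmb8 and Psmb9 above 0 while the other 6 stayed below it. The median of all tested genes moved to the right as well, from -0.18 to 0.34.

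The contrast therefore rests unevenly on the KP tumors. Tumor 3802 was higher than 3800 for all 10 members, from 1.33 times for B2m to 6.09 times for Psmb9, and it was measured in 1 library. Leaving out a tumor cannot undo a separation without overlap, so counts of separated genes do not show how far it rests on 1 tumor. Without 3802 the median log2 fold change was -0.47 over the members and 0.34 over all tested genes. Among the dFLEx tumors the ratio of the highest to the lowest level ran from 1.18 for H2-T23 to 3.09 for Psmb9. Between duplicate libraries of a tumor, over 40 pairs, the difference had a median of 4.82% of the pair's mean, 36 pairs were within 20%, and the widest was 33.0% for H2-Q4 in 170019. For H2-T23 the duplicates of 170019, at 56.4 and 43.5 CPM, lay further apart than the 3 dFLEx tumors did.

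To compare levels between genes, CPM was divided by the table's exonic length in kilobases (kb). That length was 2938 bases for H2-K1, 2579 for H2-D1 and 860 for B2m. Their GENCODE M39 canonical transcripts have 1619, 2117 and 1086 bases, so the order of these genes can depend on the length used. By the table's lengths B2m stood highest of the members in every tumor, at 240 to 367 CPM per kb in dFLEx tumors and 674 and 894 in KP tumors. H2-D1 came next in the dFLEx tumors, at 100 to 130 CPM per kb, followed by H2-K1 at 54.8 to 72.6. With these lengths the 3 ranges did not overlap, and other lengths were not tried. Below them, Tapbp (15.7 to 22.7 CPM per kb), H2-T23 (16.1 to 18.9) and Psmb8 (12.2 to 27.5) overlapped. Tap1 (8.72 to 13.9) lay above Tap2 (5.25 to 8.33) and H2-Q4 (4.45 to 7.96), which overlapped each other, and Psmb9 (5.35 to 16.5) overlapped all of these. In 3800 the same genes led in the same order, with H2-D1 at 205 and H2-K1 at 123 CPM per kb. In 3802 H2-K1 and H2-D1 were level by this measure, at 444 and 427 CPM per kb.

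Ratios within a tumor do not depend on how libraries are scaled. The ratio of H2-K1 to H2-D1, per kb, was 0.545, 0.567 and 0.482 in dFLEx tumors, 0.599 in 3800 and 1.04 in 3802. All 3 dFLEx values were below both KP values, with a difference in mean log2 ratio of -0.57 (exact two-sided permutation test over tumors, p = 0.2). With 3 tumors against 2, that is the smallest p this test can give. The difference was -0.18 without 3802 and -0.97 without 3800. The ratio of the summed heavy chains to B2m, per kb, was 0.737, 0.716 and 0.590 in dFLEx tumors and 0.539 and 1.07 in KP tumors, so the groups overlapped (exact permutation p = 0.8).

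The immunoproteasome was set against its constitutive counterparts, Psmb8 with Psmb5, Psmb9 with Psmb6 and Psmb10 with Psmb7, which asks whether the inducible subunits differed apart from the rest of the particle. The geometric mean ratio per kb was 0.173, 0.130 and 0.154 in the dFLEx tumors, 0.109 in 3800 and 0.642 in 3802. Tumor 3802 stood highest and 3800 was below all dFLEx tumors. By pair, 3802 was above every dFLEx tumor for Psmb9 to Psmb6 (0.123 against 0.0280 to 0.0495) and for Psmb10 to Psmb7 (16.3 against 0.520 to 2.99), but not for Psmb8 to Psmb5, at 0.132 against 0.0574, 0.0653 and 0.141. The difference in mean log2 ratio was -0.81 (exact permutation p = 0.8), and 0.47 without 3802. Psmb10, the third inducible subunit, was at 143, 83.8 and 29.9 CPM in dFLEx tumors and at 73.8 and 350 CPM in KP tumors. Within the dFLEx group the inducible subunits and Psmb5 and Psmb6 all followed the order 170019, 170024, 170025 from high to low: Psmb5 stood at 431, 230 and 78.2 CPM and Psmb6 at 1029, 574 and 202 CPM. Psmb7 did not follow that order, at 96.0, 140 and 115 CPM, and was lowest in 3802, at 43.0 CPM.

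**Figure D3:**
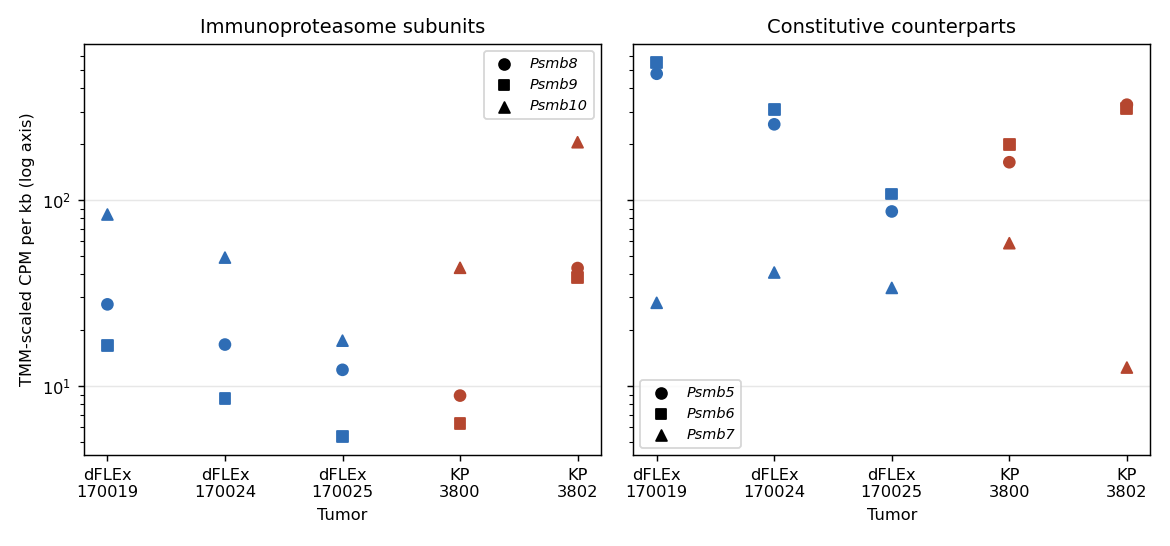
TMM-scaled CPM per kb (log axis) of 3 immunoproteasome subunits (left) and 3 constitutive counterparts (right) in each tumor, dFLEx in blue and KP in red. On the left 3802 holds the highest value of every subunit, and Psmb5 and Psmb6 on the right fall from 170019 to 170025 as the inducible subunits do.

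The rest of the pathway was described from lists of genes fixed by name. None of their genes passed the adjusted threshold in either direction. Of 17 other class I and class I-like heavy chains, 16 were tested and H2-Bl was not analysed here. At an unadjusted p under 0.05, 5 were lower in dFLEx tumors, beside 4.93% of all tested genes, and none was higher. The list's median log2 fold change was -1.32, or -0.60 without 3802. H2-Q7, which encodes a Qa-2 molecule, had the most negative value of the pathway lists, -2.94 (SE 0.78; edgeR adjusted p = 0.202), at 14.8, 9.78 and 7.09 CPM in dFLEx tumors against 27.9 and 134 CPM in KP tumors. H2-M2 followed at -2.41 (SE 1.12), though the groups overlapped, and H2-Q6 at -2.25 (SE 0.75), with 0.697, 2.60 and 2.97 CPM in dFLEx tumors against 8.62 and 11.3 CPM in KP tumors. The other 3 of the 5, named after their values were seen, were H2-T22, H2-T10 and H2-M3, with log2 fold changes of -1.57, -1.72 and -1.53. Among heavy chain-like molecules with other tasks, the log2 fold change was 0.37 (SE 0.59) for Hfe, which regulates iron uptake, and 0.30 (SE 0.81) for Fcgrt, the neonatal Fc receptor. Both were named after their values were seen, and neither passed the threshold.

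Loading and trimming factors showed no unadjusted p under 0.05 among 7 tested genes, and their median log2 fold change was -0.09. Erap1, the aminopeptidase that trims peptides in the endoplasmic reticulum, was at 5.45, 5.03 and 13.7 CPM in dFLEx tumors and at 34.9 and 9.35 CPM in KP tumors, so that the groups overlapped (log2 fold change -1.45, SE 0.78). Tapbpl, which encodes the peptide editor TAPBPR, was at 2.54, 5.22 and 5.44 CPM against 16.3 and 6.34 CPM (log2 fold change -1.36, SE 0.69). Both were higher in 3800 than in 3802, the reverse of the 10 members.

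Proteasome genes other than Psmb8 and Psmb9 had a median log2 fold change of -0.02 over 18 tested genes, with 10 below 0 and 8 above, and none had an unadjusted p under 0.05. With a tumor left out the median ran from -0.44 (without 170019) to 0.28 (without 170025). Among them the activator subunits Psme1 and Psme2 had log2 fold changes of -0.51 (SE 0.62) and -0.54 (SE 0.67). The largest value in the pathway lists was that of Psma6, a subunit of the outer ring, at 0.79 (SE 0.65), followed by the interferon receptor subunit Ifngr2 at 0.75 (SE 0.53) and the MHC regulator Rfxap at 0.66 (SE 0.65).

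Of 21 regulators, 19 were tested, 17 of them below 0, with a median of -0.37. That median depended on single tumors: it was 0.013 without 3800, with 10 of 21 tested genes below 0, -0.91 without 3802, -1.07 without 170025 and -0.15 without 170019. Irf1, a transcription factor induced by interferon gamma, stood at 22.9, 27.2 and 23.8 CPM in dFLEx tumors and at 67.8 and 55.2 CPM in KP tumors (log2 fold change -1.32, SE 0.53; edgeR adjusted p = 0.422). The dFLEx tumors were tightly grouped and the KP tumors stood close together too. Nlrc5, the transactivator of class I genes, was low throughout, at 1.04, 1.73 and 3.41 CPM against 6.53 and 6.38 CPM (log2 fold change -1.64, SE 0.72; edgeR adjusted p = 0.481). Ifng itself had at most 7 counts in a library and was not tested, nor was Ifnb1, with at most 14.

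**Figure D4:**
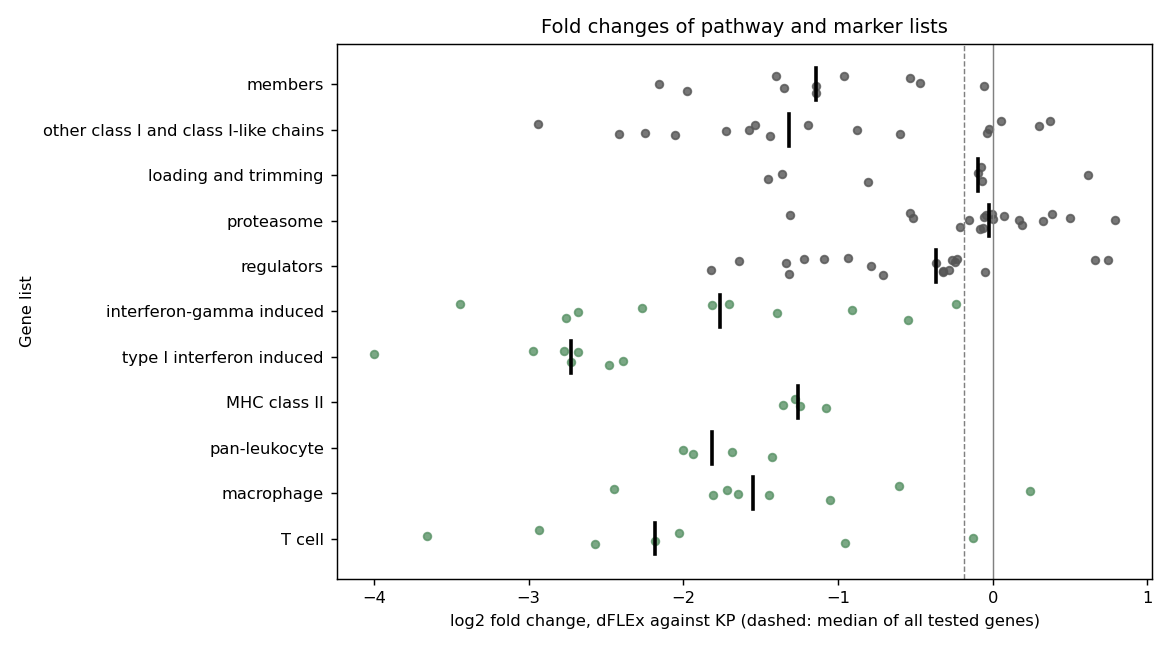
Log2 fold change of each tested gene, dFLEx against KP, by list, with a black bar at the list's median and a dashed line at the median of all tested genes (-0.18). Pathway lists are grey, and interferon-induced, MHC class II and leukocyte marker lists are green. Heavy chains lie left of the dashed line in most cases, while loading factors and the proteasome straddle it.

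Interferon-induced genes outside the class I pathway stood lower in dFLEx tumors too. All 7 genes induced by type I interferon were lower in every dFLEx tumor than in both KP tumors, as were 11.7% of all tested genes. The median log2 fold change of the 7 was -2.73. Of 10 genes induced by interferon gamma, 8 were separated in that way and 10 were below 0, with a median of -1.76. None of the 17 passed the adjusted threshold by edgeR. At an unadjusted p under 0.05, 14 were lower in dFLEx tumors, beside 4.93% of all tested genes. The summed level of the interferon gamma list was 59.5 to 81.9 CPM in dFLEx tumors against 207 and 230 CPM in KP tumors, and that of the type I list was 42.0 to 51.0 against 181 and 533 CPM.

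Markers of several leukocyte types were lower in dFLEx tumors as well, though not those of neutrophils, of which 3 of 4 were above 0 (median log2 fold change 0.38). All 4 pan-leukocyte markers were below 0 (median -1.81, and -0.40 without 3802), with a summed level of 194 to 281 CPM in dFLEx tumors against 335 and 1216 CPM in KP tumors, and Ptprc (CD45) was at 11.4, 14.2 and 22.9 CPM against 53.3 and 70.7 CPM. Of 8 macrophage markers 7 were below 0, and the list summed to 669 to 863 CPM against 1503 and 4523 CPM. The 7 T cell markers summed to 7.52 to 9.92 CPM against 12.2 and 56.6 CPM. The 4 MHC class II genes were lower in every dFLEx tumor (525 to 1131 CPM against 1414 and 2575 CPM in sum), as were 11.7% of all tested genes. No marker of these lists was at 0 in every tumor. No B cell marker separated the groups: their sum, at 3.24 to 5.93 CPM in dFLEx tumors, was lowest in 3800 (2.22 CPM) and highest in 3802 (34.7 CPM).

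Divided by the level of these markers, no class I value examined was lower in every dFLEx tumor than in both KP tumors. The groups overlapped or the dFLEx tumors stood higher. This follows in part from the fold changes: the median was -1.81 for pan-leukocyte and -1.55 for macrophage markers, against -1.14 for the members. The summed level of the 10 members was 3.46, 4.11 and 5.78 times that of the pan-leukocyte list in dFLEx tumors and 5.31 and 3.31 times in KP tumors, and the groups overlapped. Against the macrophage list the factors were 1.13, 1.36 and 1.68 in dFLEx tumors and 1.19 and 0.892 in KP tumors. Per unit of Ptprc, H2-K1 stood between 8.08 and 14.99 in dFLEx tumors and at 6.78 and 18.4 in KP tumors. B2m per unit of Ptprc was above both KP tumors in all dFLEx tumors, at 18.1, 19.2 and 13.8 against 10.9 in each KP tumor. Relative to the type I interferon list the members were higher in every dFLEx tumor (22.5 to 26.4 times against 9.85 and 7.56 times), and relative to the interferon gamma list they overlapped. These quotients compare RNA in a mixed tissue, and the part of leukocytes in the class I difference was not tested.

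**Figure D5:**
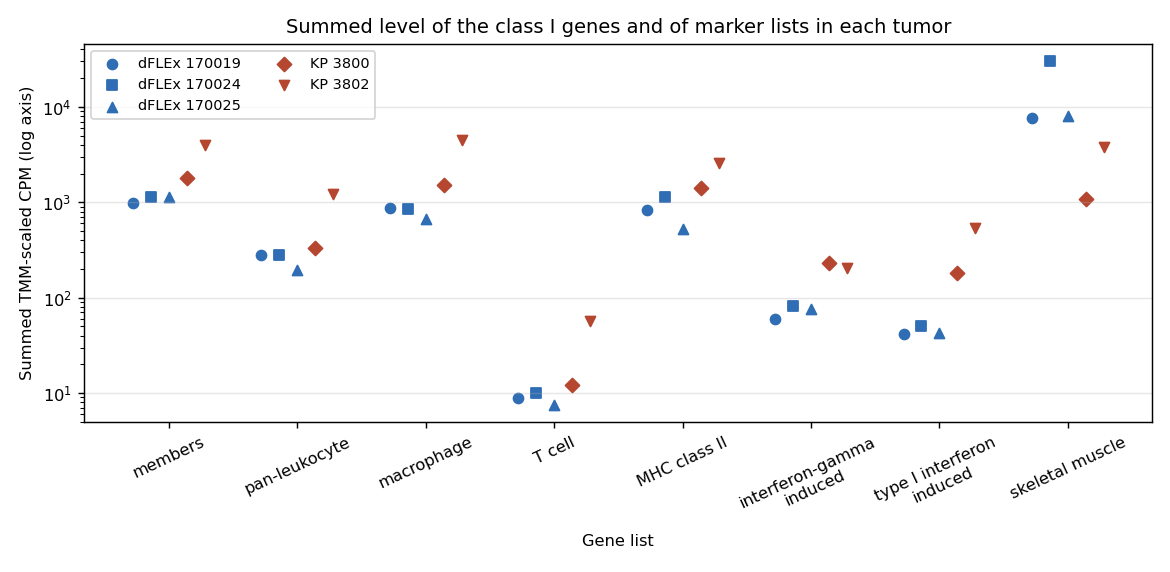
Summed TMM-scaled CPM (log axis) of the class I presentation genes and of marker lists in each tumor, dFLEx in blue and KP in red. The class I, macrophage, T cell, MHC class II and interferon-induced sums are all higher in both KP tumors, with 3802 highest except in the interferon gamma list, and the muscle sum runs the other way.

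Other cells in the tissue differed as well. The 5 skeletal muscle markers were higher in every dFLEx tumor, as were 13.7% of all tested genes. The muscle markers summed to 7631, 30156 and 7961 CPM against 1091 and 3776 CPM. All 6 endothelial markers were above 0, 1 of them with an unadjusted p under 0.05. The 6 genes that the study links to CIC::DUX4 (Etv1, Etv4, Etv5, Shc3, Shc4 and Vgf) summed to 40993 to 51260 CPM in dFLEx tumors against 295 and 298 CPM in KP tumors, and Vgf alone of them passed the threshold (edgeR adjusted p = 0.0245). That list comes from the study of these tumors and is no independent evidence of its direction. The part of muscle or endothelial cells in the class I levels was not tested.

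By a rule on likeness, the 5 genes nearest to the members were sought over the 5 tumors, as the root mean square distance between the centred log2 profile of a gene and the mean profile of the members, among 15264 genes averaging 1 CPM or more. Of these, 4 are given here: Dnaaf8 (distance 0.099), Wfikkn1 (0.100), Fgl1 (0.105) and Fam169b (0.109), against a median distance of 1.08. These 4 had between 0.441 and 5.00 CPM. The mean profile is high in 3802 and nearly level elsewhere, so the likeness is mostly a likeness in that tumor, and the members themselves lay 0.138 (H2-T23) to 0.615 (Psmb9) from it.

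Reads of some of these genes may not be assignable. The coding sequences of the 4 heavy chains were 71.2% to 88.5% identical to each other, highest for H2-K1 and H2-D1. Of the 150-base windows of a canonical transcript, equal in length to a read, 16.8% were shared with another gene for Tapbp, 16.7% for H2-D1, 12.5% for H2-Q4, 8.78% for H2-K1 and 3.10% for H2-T23, 0.575% for Tap2, and 0% for B2m and Psmb8. For Psmb9 30.4% were shared with Tap1 on the other strand, and for Tap1 7.27% with Psmb9. The partners were the antisense genes Gm53999 (H2-K1), 5430410E06Rik (H2-D1), Gm11131 (H2-Q4), A930015D03Rik (H2-T23), Gm19412 and Gm64688 (Tapbp) and Gm15821 (Tap2), besides H2-Q1 for H2-D1 and H2-T9 for H2-T23. Over all GENCODE M39 exons, Psmb8 also overlapped Gm20496 (14.6% of its exonic bases) and Tapbp overlapped Zbtb22 (20.9%). By that measure the share was 26.8% for H2-K1 with Gm53999 and 19.55% for Psmb9 with Tap1. Counting ignored strand and left out reads that aligned to several places or lay over several genes. Reads over a shared stretch are therefore missing from a member's level where the partner was also counted as a gene. Tap1, Psmb9 and H2-Q1 are in the count table, and whether the other GENCODE M39 partners are was not checked.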

How the data were processed

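Deposited values are raw counts per gene; the authors trimmed reads with Trimmomatic (0.39), aligned them with STAR (2.7.10a) to mm39 with the construct added, and counted them with featureCounts (2.0.3, per the file headers). Each mate counted as a read, strand was ignored, and multi-mapped or multi-gene reads were left out. Library totals ran from 20503474 to 46302223 counts, and 3 counts equal 0.0648 to 0.146 CPM; such limits cover counting error only. Duplicates were summed per tumor, and 24743 genes passing filterByExpr were compared with edgeR (4.0.16; TMM, glmQLFit, glmQLFTest, Benjamini-Hochberg). SE is the log2 fold change over the root of F. Ratios were compared by exact two-sided permutation over tumors (SciPy 1.17.1). Limma (3.58.1), DESeq2 (1.42.0, after the same filter) and other alternatives are described with the sensitivity results. The fits were checked on simulated counts. Members and lists were chosen with earlier results of these data known. Named genes are the members, any pathway gene past the threshold, the 3 largest and 3 smallest pathway log2 fold changes, 14 pathway genes listed by name, the 5 of the likeness rule (pseudocount 0.5 CPM), and exceptions stated in the text; an allele of the KP mice and 2 genes that these rules name are not reported here. Dendritic, NK and fibroblast marker lists had median log2 fold changes of -1.59, -1.56 and 1.01.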

Additional observations from a re-analysis of the deposited data

How the results depend on the processing

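The number of members past the adjusted threshold was 0 by edgeR on tumor sums. It was 0 in every other fit that kept the tumor as the unit except DESeq2 on tumor sums, which called 2 (H2-K1 and H2-Q4). By limma-voom with tumors as random effects it was 0 too. There 5 members had an unadjusted p under 0.05, beside 2701 of 19538 tested genes in either direction. Treating the libraries as independent called 5 by edgeR and 4 by DESeq2, where H2-K1 had no adjusted p; these fits count duplicates of the same RNA as replicates. Of all genes, 45 were called by edgeR on tumor sums, 1528 by DESeq2 on tumor sums and 880 with no filter. The count was 80 with genes averaging 1 CPM or more, 11 with robust dispersions and 183 with the trend of GC content and length removed. Of 19538 tested genes, 3344 and 5042 were called with libraries independent (edgeR and DESeq2) and 543 by limma-voom. Leaving out a tumor gave 0 to 414 genes, lowest without 170019 or 170024 and highest without 3802, and 0 members. The replicate number marks only a duplicate, so as a replicate block it pairs no tumors. That fit called 2476 of 19538 tested genes and 3 members (H2-K1, H2-Q4 and B2m). H2-K1, H2-D1, H2-Q4, H2-T23, B2m and Tapbp were below 0 in all 18 alternatives. Tap1 turned positive with no filter (0.13), with libraries independent in edgeR (0.0076), with the replicate block (0.081) and without 3802; Tap2, Psmb8 and Psmb9 did so only without 3802. Over the tumors left out the log2 fold change ran from -0.33 to 0.59 for Tap1, from -1.07 to 0.85 for Tap2, from -1.04 to 1.10 for Psmb8 and from -1.78 to 0.70 for Psmb9. The count of members lower in every dFLEx tumor was 6, 4 with upper-quartile scaling, and 6 to 10 over the tumors left out. Library totals, upper-quartile scaling and removal of the GC and length trend moved the median of all genes by -0.28, -0.16 and -0.14. Leaving out 3802 or 3800 moved it further, by 0.52 and 0.42 over the genes of the fit to all 5 tumors. Called genes were 25 higher and 20 lower under TMM, 14 and 20 under library totals, and 17 and 33 under upper-quartile scaling. Over the tumors left out, the log2 difference ran from -2.09 to 0.47 for the immunoproteasome ratio, from -0.97 to -0.18 for H2-K1 to H2-D1, and from -0.66 to 0.33 for heavy chains to B2m, with the ends set by 3800 and 3802. The GC and length trend and the count of separated members were added after seeing the data. The cause of these changes was not tested. Counts were high enough for every member, and the precision is limited by 5 tumors.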
